A study of Mus musculus with 32 samples.

Results

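Type I interferon response genes are the genes that cells switch on when interferon alpha or beta reaches its receptor, together with both receptor chains and the factors that carry the signal. The 46 genes were taken by symbol from a fixed list, which was chosen with earlier results of these data known. Of these, 45 were on the arrays, each by 1 probe, among 19505 genes in all. Ifi44 had no probe paired with its symbol and is not analysed here. The study placed an ischaemic injury of the cerebrum beside one of the spinal cord, with an interest in microglia and remyelination. All 32 arrays came from male wild-type C57BL/6J mice of 6 to 12 weeks, with no transgene or deletion in any group. Photothrombosis, in which a light-activated dye closes the vessels under the beam, was applied to the cerebrum or to the spinal cord. Each tissue had 4 arrays of control tissue and 4 each at day 1, day 3 and day 7 after injury, which gives 8 groups. Surgery of the controls, the segment or cortical area taken, and whether each array stands for 1 animal are not stated in the labels. The p-values therefore rest on the spread among these samples, which may be technical.

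Interferon alpha and beta bind a receptor made of IFNAR1 and IFNAR2, whose kinases activate STAT2. With IRF9 it is part of a complex named ISGF3, which binds the interferon-stimulated response element (ISRE) in the promoters of its target genes. The products include sensors of foreign nucleic acid, enzymes that halt translation or degrade RNA, and membrane proteins that hold back viruses, while USP18 feeds back on the receptor. In the injured brain and spinal cord, microglia, astrocytes, endothelial cells and infiltrating monocytes are all able to raise such genes, and several of them also respond to interferon gamma or to inflammatory signals.

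The deposited values are log2 signals centred for each probe, so a value of 0 is near the middle of the arrays and says nothing of how abundant a transcript was. Changes are differences of group means on the log2 scale, given with a standard error after the ± sign, from 1 limma fit over all genes with Benjamini-Hochberg adjustment. A gene rose or fell where its adjusted p was below 0.05. Day 3 and day 7 arrays appeared to have been centred with the controls but apart from day 1, so their offsets were rebuilt and changes against control at those days were tested against a bound for each gene rather than against 0. Forebrain identity genes averaged 0.82 to 1.88 on the cerebral arrays and -1.78 to -1.18 on the cord arrays, while trunk Hox genes averaged -1.41 to -1.05 and 0.73 to 1.98, so all 32 arrays carried the markers of their labelled tissue. Skeletal muscle markers averaged 4.0, 3.41, 1.35 and 0.28 on the 4 cord controls against at most 1.21 on any array of another group. Cord day 3 replicate 1 had the lowest array weight, 0.225 where the other arrays had 0.491 to 1.82. Results that rest on it are given with and without it.

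The members moved upwards in both tissues at each time. Of 45, 20 rose and 0 fell at cerebral day 1, where 8.91% of all genes rose and 8.22% fell. At cerebral day 3, 10 rose and 0 fell, beside 2.86% and 2.08% of all genes, and at cerebral day 7, 16 rose and 0 fell, beside 3.06% and 1.03%. In the spinal cord 20 rose and 0 fell at day 1, beside 15.8% and 16.1% of all genes. At cord day 3, 23 rose and 0 fell, beside 9.28% and 7.93%, and at cord day 7, 18 rose and 1, Cmpk2, fell, beside 13.1% and 12.9%. Unadjusted p in limma was below 0.05, in either direction, for 30, 21 and 26 members in the cerebrum and 28, 30 and 23 in the cord at days 1, 3 and 7. Counts at unadjusted p, here and below, have no share of all genes beside them. The bound also makes each count of days 3 and 7 stricter than that of day 1, so a lower count need not mean a smaller change. The median change of the 45 members was 0.48, 0.50 and 0.67 in the cerebrum and 0.47, 0.78 and 0.62 in the cord at days 1, 3 and 7. Over all genes it lay between -0.10 and 0.02. With quantile normalisation on top of the deposited values the cord counts of days 3 and 7 came to 14 and 7, and the cerebral count of day 3 ran from 4 to 22 over the alternatives. In whole tissue, a change in the number of cells of a type and a change in RNA per cell cannot be told apart.

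**Figure D1:**
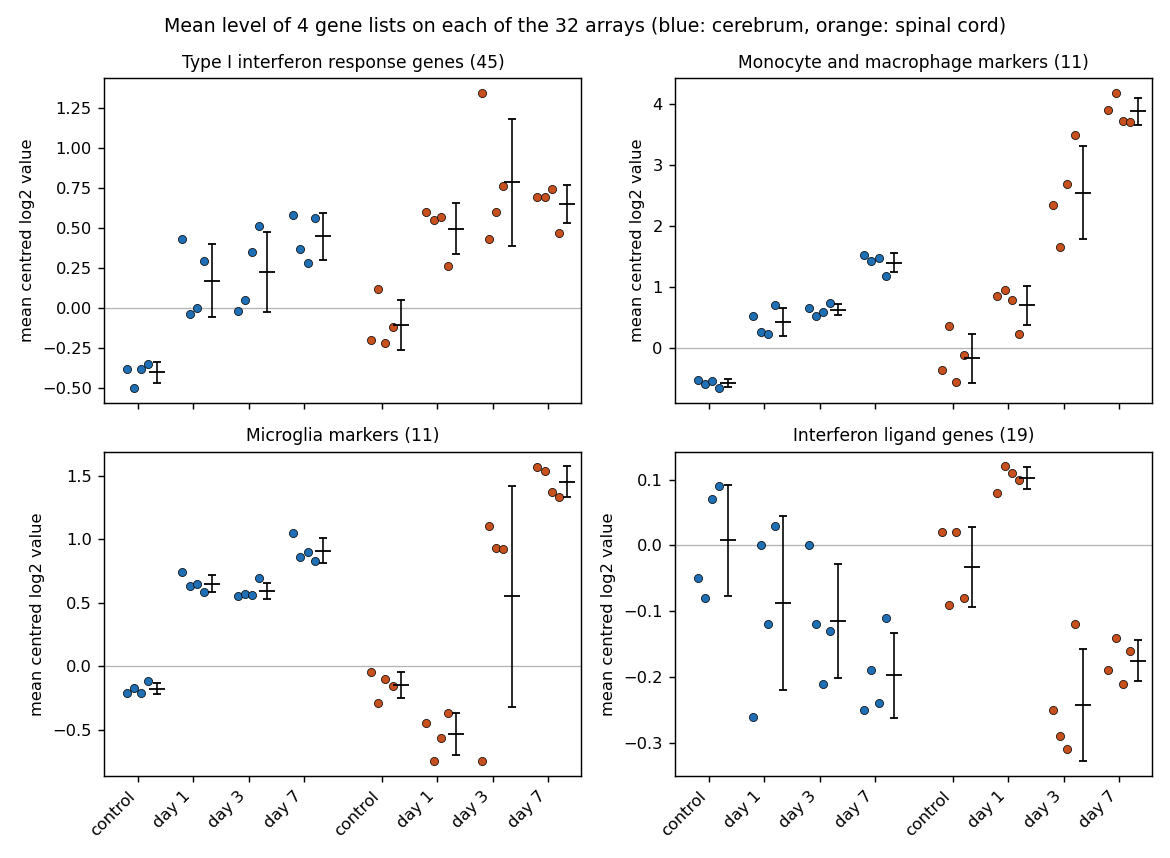
Mean centred log2 value of 4 gene lists on each array, by tissue and time; points are arrays in the order of replicates 1 to 4, dashes with bars are the group mean and SD. The 45 members averaged -0.50 to -0.35 on cerebral controls and -0.04 to 0.58 after cerebral injury, and cord day 3 replicate 1 stood at 1.34 with microglia markers at -0.75, while the 19 ligand genes stayed within -0.31 to 0.12 on all arrays.

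Averaged over the 45 members, cerebral controls read -0.38, -0.50, -0.38 and -0.35, and the injured cerebral arrays read 0.43, -0.04, -0.00 and 0.29 at day 1, -0.02, 0.05, 0.35 and 0.51 at day 3, followed by 0.58, 0.37, 0.28 and 0.56 at day 7. All injured cerebral arrays lay above the controls. Cord controls read -0.20, 0.12, -0.22 and -0.12, and the injured cord 0.60, 0.55, 0.57 and 0.26 at day 1, 1.34, 0.43, 0.60 and 0.76 at day 3, followed by 0.69, 0.69, 0.74 and 0.47 at day 7. The injured cord arrays also lay above their controls, with cord control replicate 2 nearest to them and cord day 3 replicate 1 highest of all 32.

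Markers of other cells moved in the same samples, and their part in the results was not tested. Of 11 monocyte and macrophage markers, 4, 3 and 5 rose in the cerebrum at days 1, 3 and 7, and 3, 10 and 10 in the cord, where the median change was 0.54, 3.07 and 3.23. Their mean level was -0.65 to -0.52 on cerebral controls and 1.18 to 1.53 at cerebral day 7, against -0.56 to 0.37 on cord controls and 3.71 to 4.18 at cord day 7. Microglia markers rose in the cerebrum for 6, 3 and 6 of 11. In the cord 2 rose and 3 fell at day 1, and 5 and 6 rose at days 3 and 7, with mean levels of -0.29 to -0.05 on controls, -0.75 to -0.37 at day 1 and 1.33 to 1.57 at day 7. Neutrophil markers rose for 5, 3 and 9 of 11 in the cord. Fibroblast markers rose for 2, 5 and 6 of 7 there, and neuronal markers fell for 3, 5 and 9 of 10, with 1 that rose at day 1. Astrocyte markers rose for 7, 2 and 3 of 10 in the cerebrum, where their mean level was -0.87 to -0.75 on controls and 0.04 to 0.23 at day 1. In the cord 4 rose and 2 fell at day 1, and 1 and 3 rose at days 3 and 7. Oligodendrocyte markers rose for 5 of 7 at cerebral day 1, and 4, 1 and 1 fell in the cord. Day 1 was tested against 0 and later days against a bound, so marker counts cannot be compared between day 1 and later days. Ermn passed at day 1 alone in both tissues. Its changes were 0.79, 0.98 and 1.10 in the cerebrum and -0.66, -0.84 and -1.08 in the cord. Cnp instead stood at 0.65, 0.66 and 0.18 in the cerebrum and at -0.76, -0.61 and 0.06 in the cord. Endothelial markers rose for 4, 3 and 1 of 10 in the cerebrum and 6, 5 and 3 in the cord, where 3, 1 and 1 fell. Skeletal muscle markers, high on cord controls, all fell at cord day 1, from -0.44 for Ckm to -4.55 for Myh4. Their changes at cord days 3 and 7 were all negative too, though not all passed. Markers of T and NK cells averaged -0.26 to 0.15 over all arrays and those of B cells and plasmacytoid dendritic cells -0.22 to 0.33.

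**Figure D2:**
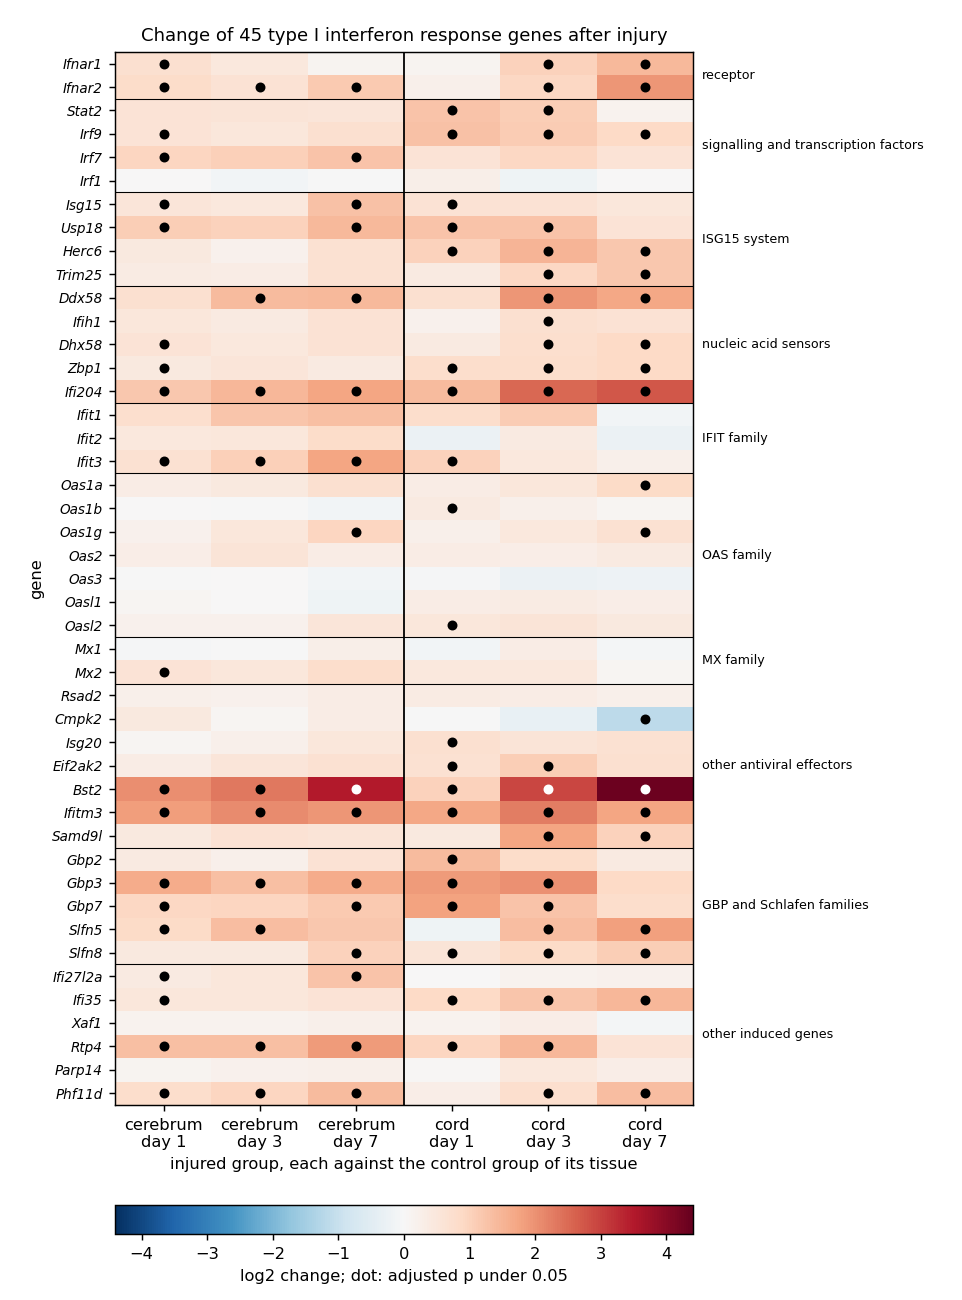
Log2 change of the 45 members (rows, grouped by role) at each day against the control group of the same tissue (columns); a dot marks adjusted p under 0.05. Bst2 runs from 1.00 at cord day 1 to 4.32 at cord day 7, Oas3 and Irf1 have no dot in any column, and Cmpk2 has the only dot on a fall, at cord day 7.

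Only 3 members, Bst2, Ifitm3 and Ifi204, rose in all 6 comparisons with control, and 4 more, Ifnar2, Gbp3, Rtp4 and Phf11d, rose in 5. Another 11 rose in none of the 6, namely Irf1, Ifit1, Ifit2, Oas2, Oas3, Oasl1, Mx1, Rsad2, Cmpk2, Xaf1 and Parp14, several of which are used as standard readouts of interferon action. Ifit1 was not flat among these, with a mean change of 0.84 (-0.11 to 1.31) that passed nowhere at its larger standard error. The others had mean changes of -0.11 to 0.37. At day 1 the 20 genes that rose in the cerebrum and the 20 that rose in the cord shared 12, or 12 of 20 in each list, and over all genes the lists shared 42.3% of the cerebral and 23.8% of the cord genes. At day 3 the members' lists shared 9 of the 10 cerebral and 23 cord genes, beside 75.9% and 23.4% over all genes. At day 7 they shared 8 of 16 and 18, beside 87.6% and 20.4%. Whether members and other genes differ in this was not tested.

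The promoters of the members were searched for the ISRE because ISGF3 acts on its target genes through it. RefSeq promoters of build GRCm38.p6, from 250 bases before to 50 bases after each start, were found for 34 of the 45. The letters GAAA, any 2 bases and GAAA again, on either strand, occurred in 18 of the 34 (52.9%), against 3.99% of 27025 genes with such a promoter. The letters TTCNNNGAA, a form of the gamma-activated site that reads the same on both strands, occurred in 11 (32.4%), against 9.55%. A match is a description of the letters and not a bound site. The members were listed as interferon response genes, so an excess of ISRE matches over all genes follows from the list. It is no result of these arrays. Among members with a promoter, the 18 with an ISRE match had a median change of 0.57, 0.54 and 1.08 in the cerebrum at days 1, 3 and 7, and the 16 without had 0.43, 0.40 and 0.58. In the cord the medians were 0.70, 0.95 and 0.67 with a match and 0.36, 0.83 and 0.77 without. The ranges of both sets overlapped in each comparison. At cord day 7 alone the set without a match had the higher median.

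The ISRE matches with at most 60 bases on each side, none past the transcription start, are shown 5′ to 3′ on the strand of the gene for 5 members whose results are described below. For Ifnar1, which holds no match, the 120 bases before the start are shown. Capitals mark the ISRE match, which reads TTTC, any 2 bases and TTTC where it lies on the other strand. In Bst2 (chr8:71537527-71537662, minus strand) and Gbp3 (chr3:142559939-142560043, plus strand) 2 matches overlap. Ifit1 (chr19:34640725-34640873, plus strand) and Ifit3 (chr19:34583313-34583476, plus strand) each hold 2 separate matches. Slfn5 (chr11:82951887-82952016, plus strand) holds 1, and Ifnar1 is chr16:91485095-91485214 on the plus strand.
Bst2: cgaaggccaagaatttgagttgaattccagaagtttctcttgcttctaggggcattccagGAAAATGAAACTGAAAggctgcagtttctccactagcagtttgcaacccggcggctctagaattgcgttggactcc
Gbp3: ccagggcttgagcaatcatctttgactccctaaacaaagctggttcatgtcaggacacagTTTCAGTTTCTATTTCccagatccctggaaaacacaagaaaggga
Ifit1: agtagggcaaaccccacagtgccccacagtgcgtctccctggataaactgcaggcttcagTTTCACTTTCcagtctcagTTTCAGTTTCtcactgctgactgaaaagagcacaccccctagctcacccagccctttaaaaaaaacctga
Ifit3: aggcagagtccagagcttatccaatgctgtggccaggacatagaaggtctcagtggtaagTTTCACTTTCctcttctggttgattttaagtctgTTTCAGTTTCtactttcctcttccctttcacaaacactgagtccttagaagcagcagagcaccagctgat
Slfn5: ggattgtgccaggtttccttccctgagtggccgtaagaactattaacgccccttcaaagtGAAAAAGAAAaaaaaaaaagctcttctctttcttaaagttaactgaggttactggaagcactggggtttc
Ifnar1: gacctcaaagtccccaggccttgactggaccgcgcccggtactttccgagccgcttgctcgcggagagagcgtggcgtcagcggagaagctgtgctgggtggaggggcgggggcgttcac

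Both receptor chains rose first in the cerebrum and reached their largest change late in the cord. Ifnar1, the chain that recruits the kinase TYK2, read -0.03, -0.11, -0.10 and -0.05 on cerebral controls, 0.76, 0.49, 0.70 and 0.55 at day 1, 0.34, 0.45, 0.27 and 0.54 at day 3, followed by 0.32, -0.17, 0.01 and 0.02 at day 7. In the cord it read -0.03, -0.01, -0.19 and 0.15 on controls, 0.21, 0.20, -0.02 and 0.01 at day 1, 1.13, 0.78, 1.02 and 1.09 at day 3, followed by 1.48, 1.68, 1.22 and 1.25 at day 7. Thus the cerebral arrays stood above their controls at days 1 and 3 and overlapped with them at day 7, while the cord arrays overlapped at day 1 and stood above at days 3 and 7. Against control, the change was 0.70 ± 0.11 (adjusted p = 5.24e-05), 0.47 ± 0.11 (0.129) and 0.12 ± 0.11 (1.0) in the cerebrum, and 0.12 ± 0.11 (0.449), 1.02 ± 0.11 (8.31e-07) and 1.43 ± 0.11 (2.36e-10) in the cord. The cord change minus the cerebral change was -0.58 ± 0.16 at day 1 (adjusted p = 0.0155), 0.55 ± 0.16 at day 3 (0.023) and 1.31 ± 0.16 at day 7 (2.71e-07). The day 3 difference was lost without cord control replicate 3 or cerebral day 3 replicate 3, and it read 0.07 (adjusted p = 0.842) with quantile normalisation on top.

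Ifnar2, the chain that holds JAK1 and is bound by USP18, read -0.84, -0.67, -0.59 and -0.77 on cerebral controls, 0.32, -0.11, 0.14 and 0.08 at day 1, 0.02, -0.10, -0.15 and -0.08 at day 3, followed by 0.36, 0.47, 0.46 and 0.47 at day 7. Its cord values were -0.35, 0.20, -0.07 and 0.07 on controls, 0.52, 0.26, 0.17 and -0.14 at day 1, 0.66, 0.70, 0.94 and 1.17 at day 3, followed by 1.90, 2.14, 1.76 and 1.78 at day 7. Every injured cerebral array lay above its controls, and in the cord the arrays of days 3 and 7 did. The changes were 0.82 ± 0.13, 0.64 ± 0.13 and 1.15 ± 0.13 in the cerebrum, all past the test (adjusted p = 4.31e-05, 0.0238 and 7.9e-06). In the cord they were 0.24 ± 0.13 (adjusted p = 0.158), 0.91 ± 0.13 (6.91e-05) and 1.93 ± 0.13 (2.55e-12). The cerebral day 3 call was lost without cerebral control replicate 4 or cerebral day 3 replicate 4. The difference between tissues was -0.58 ± 0.18 at day 1 (adjusted p = 0.0361), 0.27 ± 0.18 at day 3 (0.406) and 0.78 ± 0.18 at day 7 (0.00152). The day 1 call was lost in 8 of the 32 fits that left out 1 array. The difference read -0.22 at day 7 (adjusted p = 0.488) with quantile normalisation on top of the deposited values, where the difference of Ifnar1 stayed at 0.61 (0.00595). Ifnar2 also rose from day 3 to day 7 in the cord (1.03 ± 0.13, adjusted p = 0.00281), the 1 member to do so beside 2.52% of all genes, while 0 members fell beside 1.37%. Unadjusted p was below 0.05 for 4 members there, and the same quantile step ended the call of Ifnar2.

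**Figure D3:**
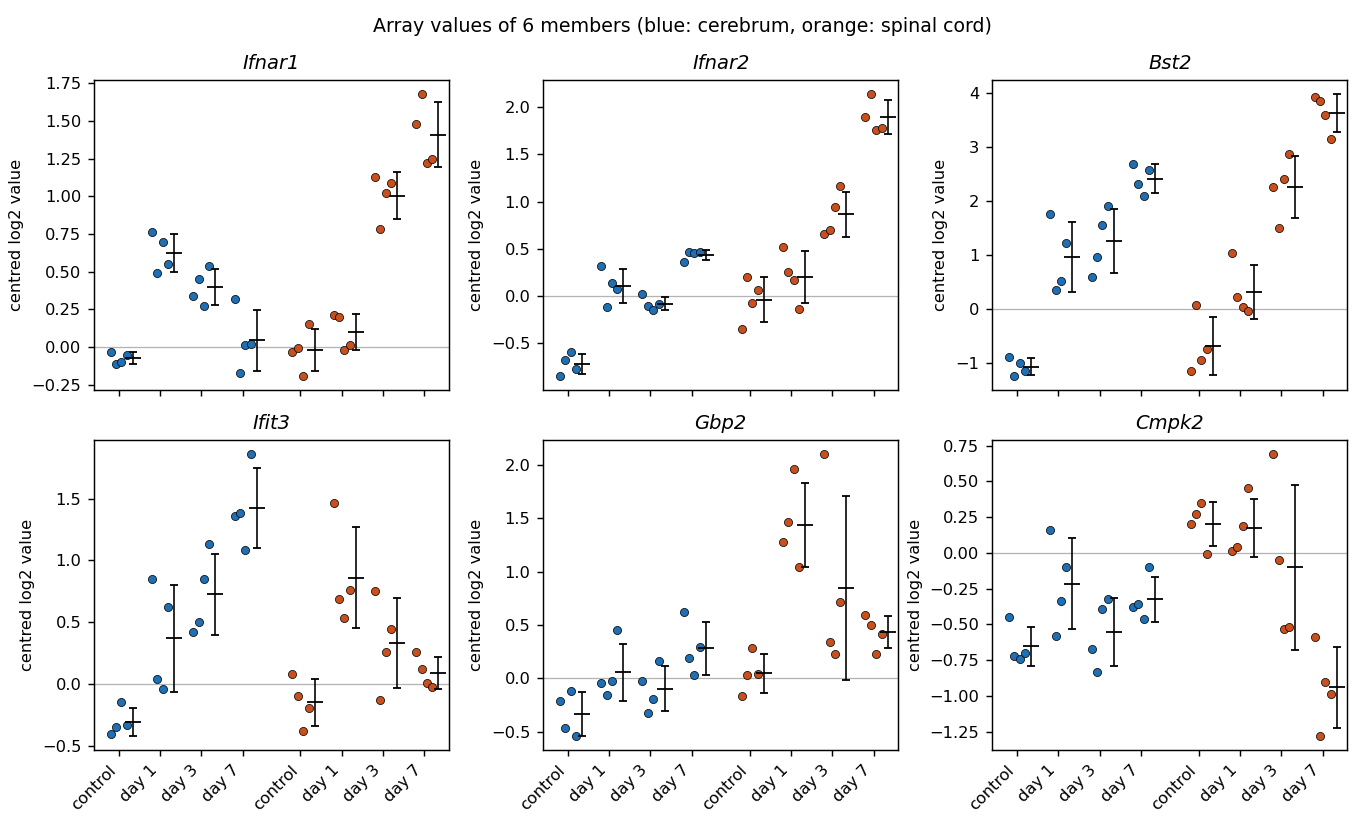
Centred log2 value of 6 members on each array, by tissue and time; points are arrays in the order of replicates 1 to 4, dashes with bars are the group mean and SD. Ifnar1 falls back to -0.17 to 0.32 at cerebral day 7 and reaches 1.22 to 1.68 at cord day 7, Ifit3 does the reverse with 1.08 to 1.86 and -0.03 to 0.26, and Gbp2 has its cord maximum at day 1 apart from 1 array of day 3.

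Of the 4 signalling and transcription factors, Stat2 and Irf9, both subunits of ISGF3, rose early in the cord. Stat2 read -0.22, 0.32, -0.22 and 0.14 on cord controls, 1.18, 1.29, 1.42 and 1.22 at day 1, 2.69, 0.63, 0.38 and 0.65 at day 3, followed by 0.22, 0.22, 0.11 and 0.07 at day 7. The day 1 arrays lay above all controls, and day 7 had come back among them. The change was 1.27 ± 0.28 at day 1 (adjusted p = 0.000677), 1.08 ± 0.28 at day 3 (0.0126) and 0.15 ± 0.28 at day 7 (1.0). Without replicate 1 the day 3 change was 0.55 ± 0.15 and no longer passed (adjusted p = 0.0823). In the cerebrum Stat2 stood at 0.59, 0.56 and 0.54, none past the test, and with all arrays the tissues did not differ beyond the threshold at any day. The day 1 difference of Stat2 did pass without cord day 3 replicate 1, which enters that test only through the shared estimate of the spread.

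Irf9, the DNA-binding subunit of ISGF3, rose in the cord at all times, by 1.30 ± 0.15, 1.10 ± 0.15 and 0.88 ± 0.15 (adjusted p = 2.01e-07, 2.76e-05 and 0.00115). In the cerebrum it rose at day 1 by 0.60 ± 0.15 (adjusted p = 0.00665), and days 3 and 7 stood at 0.51 and 0.71 without passing. Its day 1 response was larger in the cord by 0.70 ± 0.22 (adjusted p = 0.035), a call lost in 7 of the 32 fits without 1 array. Irf7, which amplifies interferon production, rose in the cerebrum at day 1 (0.96 ± 0.30, adjusted p = 0.0247) and day 7 (1.25 ± 0.30, 0.0325). The former call was lost without cerebral day 1 replicate 1. The cord changes of Irf7 were 0.60 to 0.91 and did not pass. Irf1, a factor that is more responsive to interferon gamma, stayed between -0.20 and 0.27 in all 6 comparisons.

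The ISG15 system consists of the ubiquitin-like protein ISG15, the ligases HERC6 and TRIM25 and the protease USP18. Isg15 read -0.12, -0.63, -0.16 and -0.14 on cerebral controls and 1.62, 0.72, 0.46 and 1.31 at day 7, without overlap, a rise of 1.29 ± 0.19 (adjusted p = 0.000331). It also rose at cerebral day 1 (0.54 ± 0.19, adjusted p = 0.0497) and cord day 1 (0.64 ± 0.19, 0.0118), while cord days 3 and 7 stood at 0.63 and 0.51 without passing. Without cerebral day 1 replicate 1 the cerebral day 1 call of Isg15 was lost. Usp18, which removes ISG15 and dampens the receptor, rose at cerebral days 1 and 7 (1.09 ± 0.28 and 1.42 ± 0.28) and at cord days 1 and 3 (1.24 ± 0.28 each). Without cord day 3 replicate 1, Usp18 stood at 0.81 ± 0.23 at day 3 and did not pass (adjusted p = 0.154).

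Herc6, the main ISG15 ligase of mice, was lower in cord than in cerebral controls and rose in the cord at all times. It read -0.96, -0.58, -0.84 and -1.08 on cord controls, 0.45, 0.09, 0.23 and -0.15 at day 1, 1.34, 0.38, 0.27 and 0.53 at day 3, followed by 0.36, 0.28, 0.46 and 0.11 at day 7. On the cerebral arrays it read 0.26, -0.14, -0.09 and -0.12 in controls, 0.68, 0.14, 0.24 and 0.56 at day 1, 0.03, -0.31, 0.27 and 0.74 at day 3, followed by 0.88, 0.34, 0.60 and 0.77 at day 7. All injured cord arrays lay above the cord controls, while the cerebral arrays of days 1 and 3 overlapped with theirs. The cord rises were 1.02 ± 0.20, 1.50 ± 0.20 and 1.17 ± 0.20 (adjusted p = 0.000196, 5.19e-06 and 0.000247), and the cerebral changes of 0.43, 0.20 and 0.67 did not pass. The difference between tissues passed at day 3 (1.29 ± 0.28, adjusted p = 0.00304, and 1.06 ± 0.25, 0.00628, without cord day 3 replicate 1), not at day 1 (0.60, 0.159) or day 7 (0.50, 0.197). Trim25, which activates the sensor RIG-I, rose at cord days 3 and 7 by 0.92 ± 0.18 and 1.17 ± 0.18 and passed at no cerebral time.

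The 5 nucleic acid sensors all rose at cord day 3, and 4 rose at cord day 7, beside 9.28% and 13.1% of all genes. Without cord day 3 replicate 1 the day 3 calls of Ifih1 and Dhx58 were lost. Ddx58, which encodes the RNA sensor RIG-I, read -0.38, 0.68, -0.48 and -0.12 on cord controls, 1.21, 0.59, 0.51 and 0.27 at day 1, 3.02, 1.08, 1.69 and 1.66 at day 3, followed by 1.56, 1.60, 1.70 and 1.60 at day 7. Cerebral values were -0.61, -0.44, -0.36 and -0.23 on controls, 0.74, -0.20, 0.12 and 0.54 at day 1, 0.23, 0.70, 1.33 and 1.62 at day 3, followed by 1.61, 0.78, 0.75 and 0.93 at day 7. From day 3 on, no injured array overlapped with its controls in either tissue. The change passed at days 3 and 7 in both, at 1.38 ± 0.31 and 1.43 ± 0.31 in the cerebrum and 1.94 ± 0.31 and 1.69 ± 0.31 in the cord (adjusted p = 0.0106, 0.0124, 4.9e-05 and 0.000229). The cerebral day 3 call was lost without cerebral day 3 replicate 4.

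Ifi204, a DNA sensor of the p200 family that is high in myeloid cells, rose in all 6 comparisons. It read -0.59, -0.64, -0.55 and -0.65 on cerebral controls, 1.25, 0.22, 0.29 and 0.61 at day 1, 0.39, 0.56, 1.19 and 1.27 at day 3, followed by 1.34, 1.22, 0.69 and 1.21 at day 7. On the cord arrays it read -0.22, -0.28, -0.84 and -0.57 in controls, 1.07, 1.32, 0.76 and 0.45 at day 1, 2.76, 1.16, 1.90 and 2.38 at day 3, followed by 2.62, 2.23, 2.34 and 1.83 at day 7. Every injured array lay above the controls of its tissue. The changes were 1.20 ± 0.26, 1.46 ± 0.26 and 1.72 ± 0.26 in the cerebrum and 1.38 ± 0.26, 2.53 ± 0.26 and 2.74 ± 0.26 in the cord, with adjusted p from 1.77e-09 to 0.00161. The cord exceeded the cerebrum by 1.02 ± 0.37 at day 7 (adjusted p = 0.0377), and this difference was lost in 10 of the 32 fits without 1 array and read -0.41 (0.554) with quantile normalisation on top.

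The other sensors changed less. Ifih1 (MDA5) rose at cord day 3 alone (0.71 ± 0.18), and Dhx58 (LGP2) rose at cerebral day 1 (0.59 ± 0.18) and cord days 3 and 7 (0.73 ± 0.18 and 0.89 ± 0.18). Both day 3 calls were lost without cord day 3 replicate 1, at 0.49 each. Zbp1, a sensor of Z-form nucleic acid that can trigger necroptosis, rose at all cord times (0.76 ± 0.15, 0.78 ± 0.15 and 0.86 ± 0.15) and at cerebral day 1 (0.44 ± 0.15). The cerebral day 1 calls of Dhx58 and Zbp1 were lost without cerebral day 1 replicate 1. None of the differences between tissues passed for these 3 sensors.

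The IFIT proteins bind RNA that lacks the marks of the host. In the cerebrum Ifit3 read -0.41, -0.35, -0.15 and -0.33 on controls, 0.85, 0.04, -0.04 and 0.62 at day 1, 0.42, 0.50, 0.85 and 1.13 at day 3, followed by 1.36, 1.38, 1.08 and 1.86 at day 7. Its cord values were 0.08, -0.10, -0.38 and -0.20 on controls, 1.46, 0.69, 0.53 and 0.76 at day 1, 0.75, -0.13, 0.26 and 0.44 at day 3, followed by 0.26, 0.12, 0.01 and -0.03 at day 7. Cerebral arrays of day 7 lay above all controls and all day 3 arrays but 1, while the cord arrays of day 7 overlapped with cord controls. The change was 0.68 ± 0.20, 1.04 ± 0.20 and 1.73 ± 0.20 in the cerebrum (adjusted p = 0.0196, 0.0055 and 8.44e-06) and 1.01 ± 0.20, 0.48 ± 0.20 and 0.24 ± 0.20 in the cord (0.000316, 0.292 and 1.0). Leaving out cerebral day 1 replicate 1 ended the cerebral call of day 1. At day 7 the cord change was lower by 1.49 on the log2 scale, a difference of -1.49 ± 0.29 (adjusted p = 0.000193) that kept its call under every alternative run.

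Ifit1 read -0.52, -0.90, -0.23 and -0.34 on cerebral controls, 0.50, -0.03, -0.10 and 0.65 at day 1, 0.55, 0.26, 0.77 and 1.34 at day 3, followed by 0.80, 0.66, 0.37 and 1.41 at day 7. The cord arrays read 0.03, 0.68, -0.10 and -0.25 in controls, 0.80, 0.76, 1.05 and 0.82 at day 1, 2.89, 0.45, 0.64 and 0.83 at day 3, followed by 0.12, -0.14, -0.01 and -0.06 at day 7. The cord arrays of day 7 overlapped with their controls. Although the injured cerebral arrays lay above theirs, the changes of 0.75, 1.23 and 1.31 did not pass, the last with adjusted p = 0.0526. Cord changes were 0.77, 1.11 and -0.11, and that of day 3 was 0.55 without replicate 1. The day 7 responses differed by -1.42 ± 0.46 (adjusted p = 0.0207), and not past the threshold without cord control replicate 2 or cerebral day 7 replicate 4. Ifit2 was higher in cord than in cerebral controls by 0.71 ± 0.20 and had a day 7 difference of -1.07 ± 0.28 (adjusted p = 0.00469), with no change against control past the test.

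The OAS enzymes make short adenylate chains that switch on RNase L, and most of the 7 genes moved little. Oas1a rose at cord day 7 (0.84 ± 0.15, adjusted p = 0.00122). Oas1g rose at day 7 in both tissues, by 0.94 ± 0.16 in the cerebrum (adjusted p = 0.00537) and 0.66 ± 0.16 in the cord (0.0401). Oas1b, which carries a premature stop in most laboratory strains, rose at cord day 1 by 0.40 ± 0.13 and Oasl2 by 0.50 ± 0.16. Oas2, Oas3 and Oasl1 passed in none of the 6 comparisons, with changes of -0.26 to 0.58. Oas1a, Oas1b and Oas1g are close paralogs, as are members of the IFIT, GBP and Schlafen families, and whether each probe separates them was not tested.

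The MX proteins are dynamin-like GTPases, and common inbred strains such as C57BL/6 carry a defective Mx1. Mx1 changed by -0.13 to 0.31 and passed nowhere. Mx2 rose at cerebral day 1 by 0.59 ± 0.19 (adjusted p = 0.0286), with other changes of 0.08 to 0.76, and was higher in cord than in cerebral controls by 0.80 ± 0.19 (adjusted p = 0.00108). Its rise at cerebral day 1 did not pass without replicate 1 of that group.

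Among the other antiviral effectors, Bst2 had the largest change of all members. Bst2, or tetherin, holds budding virus at the cell surface. It read -0.89, -1.23, -0.99 and -1.14 on cerebral controls, 1.77, 0.35, 0.53 and 1.22 at day 1, 0.60, 0.96, 1.55 and 1.92 at day 3, followed by 2.68, 2.32, 2.10 and 2.58 at day 7. In the cord it read -1.14, 0.08, -0.95 and -0.74 on controls, 1.04, 0.22, 0.04 and -0.04 at day 1, 2.27, 1.50, 2.42 and 2.88 at day 3, followed by 3.93, 3.86, 3.60 and 3.15 at day 7. Injured arrays lay above controls throughout, except at cord day 1, where 2 arrays lay below control replicate 2. The change was 2.03 ± 0.31, 2.32 ± 0.31 and 3.48 ± 0.31 in the cerebrum (adjusted p = 2.77e-05, 1.66e-05 and 4.42e-09), the last an 11.2-fold rise. In the cord it was 1.00 ± 0.31, 2.95 ± 0.31 and 4.32 ± 0.31 (adjusted p = 0.0129, 3.49e-08 and 1.67e-12). None of the differences between tissues passed, at -1.03, 0.64 and 0.84 with standard errors of 0.43. The day 7 rise came to 2.62 in the cord and to 2.39 in the cerebrum at the lowest over the alternatives.

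Ifitm3, which blocks the entry of enveloped viruses, changed by about the same size everywhere. It read -1.51, -1.85, -1.65 and -1.42 on cerebral controls and 0.79, -0.03, 0.03 and 0.14 at day 1, with 0.18 to 0.97 at day 3 and 0.19 to 0.59 at day 7. Cord controls read -0.93, 0.58, -0.62 and -0.18 and day 1 read 1.84, 1.96, 1.57 and 0.25, with 1.43 to 2.36 at day 3 and 1.14 to 1.63 at day 7. Only cord day 1 overlapped with its controls, through replicate 4 and control replicate 2. The 6 changes ran from 1.69 to 2.25 with a standard error of 0.29, and adjusted p ran from 2.4e-05 to 0.00197. Its level was already higher in cord than in cerebral controls by 1.32 ± 0.29 (adjusted p = 0.000394).

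Cmpk2, a mitochondrial nucleotide kinase encoded next to Rsad2, was the 1 member that fell. In the cord it read 0.20, 0.27, 0.35 and -0.01 on controls, 0.01, 0.04, 0.19 and 0.45 at day 1, 0.69, -0.05, -0.53 and -0.52 at day 3, followed by -0.59, -1.28, -0.90 and -0.99 at day 7. Cerebral arrays read -0.45, -0.72, -0.74 and -0.70 in controls, 0.16, -0.58, -0.34 and -0.10 at day 1, -0.67, -0.83, -0.39 and -0.32 at day 3, followed by -0.38, -0.36, -0.46 and -0.10 at day 7. Day 7 in the cord lay below all other cord arrays. The change there was -1.14 ± 0.19 (adjusted p = 0.000251), and the cerebral change was 0.33 ± 0.19 (1.0), a difference of -1.47 ± 0.27 (0.000109). Cord controls had exceeded cerebral controls by 0.86 ± 0.19 (adjusted p = 0.000565). Rsad2, which encodes viperin, passed in none of the 6 comparisons, at 0.18 to 0.35.

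Samd9l, an antiviral factor that slows translation, read -0.36, 1.18, -0.48 and 0.34 on cord controls, 0.80, 0.80, 0.86 and -0.09 at day 1, 2.60, 1.77, 1.59 and 1.70 at day 3, followed by 0.87, 1.33, 1.65 and 0.93 at day 7. Cerebral arrays read -0.13, -0.64, -0.35 and -0.04 in controls, -0.13 to 0.49 at day 1, -0.12, 0.17, 0.13 and 1.17 at day 3, and -0.02 to 0.44 at day 7. Cord day 3 lay above all controls, and the other cord times overlapped with control replicate 2. The rises of 1.74 ± 0.29 at cord day 3 (adjusted p = 0.000417) and 1.02 ± 0.29 at cord day 7 (0.0285) passed, and both calls were lost with quantile normalisation on top. Eif2ak2, the kinase PKR that halts translation, rose at cord days 1 and 3 by 0.68 ± 0.21 and 1.07 ± 0.21, the latter 0.73 ± 0.16 without cord day 3 replicate 1. Isg20, an RNA exonuclease, rose at cord day 1 by 0.69 ± 0.18.

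The guanylate-binding proteins are GTPases that attack the vacuoles of intracellular microbes and that interferon gamma also induces. Gbp2 read -0.17, 0.03, 0.28 and 0.04 on cord controls, 1.28, 1.46, 1.96 and 1.04 at day 1, 2.10, 0.34, 0.23 and 0.71 at day 3, followed by 0.59, 0.50, 0.23 and 0.41 at day 7. On cerebral arrays it read -0.21, -0.47, -0.12 and -0.54 in controls, -0.04, -0.16, -0.03 and 0.45 at day 1, -0.03, -0.33, -0.19 and 0.16 at day 3, followed by 0.62, 0.19, 0.03 and 0.29 at day 7. The cord arrays of day 1 stood above all controls. The change was 1.39 ± 0.25 there (adjusted p = 7.39e-05) and passed at no other time, and the difference between tissues at day 1 was 1.00 ± 0.35 (0.0581). That difference passed without cord day 3 replicate 1.

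Gbp3 read -1.37, -0.94, -1.36 and -1.15 on cerebral controls, 1.06, 0.07, 0.14 and 0.40 at day 1, -0.06, -0.25, 0.38 and 0.39 at day 3, followed by 0.59, 0.37, 0.15 and 0.60 at day 7. The cord read -0.71, -0.07, -0.96 and -0.43 on controls, 1.58, 1.11, 1.86 and 0.83 at day 1, and 3.26, 0.45, 0.80 and 1.36 at day 3. Cord day 7 read 0.18, 0.45 and 0.65 on 3 arrays and just below 0 on replicate 4. All injured arrays lay above their controls. Gbp3 rose by 1.62 ± 0.35, 1.32 ± 0.35 and 1.63 ± 0.35 in the cerebrum and by 1.89 ± 0.35 and 2.01 ± 0.35 at cord days 1 and 3, and cord day 7 stood at 0.86 ± 0.35 (adjusted p = 0.159). Gbp7 rose at cord days 1 and 3 (1.77 ± 0.25 and 1.27 ± 0.25) and at cerebral days 1 and 7 (0.91 ± 0.25 and 1.14 ± 0.25). Without cord day 3 replicate 1 the day 3 rises were 1.41 ± 0.25 for Gbp3 and 0.94 ± 0.23 for Gbp7, both past the test. The cerebral day 1 call of Gbp7 was lost without replicate 1 of that group. For Gbp3, the cerebral day 3 call was lost without cerebral control replicate 4 or cerebral day 3 replicate 4.

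The Schlafen genes are interferon-induced regulators of RNA and growth, and Slfn5 lagged in the cord. It read -0.60, -0.88, -0.71 and -0.55 on cerebral controls, 0.51, -0.12, 0.03 and 0.23 at day 1, 0.19, 0.58, 0.83 and 1.14 at day 3, followed by 0.73, 0.38, 0.40 and 0.45 at day 7. Cord control replicates 1 to 4 read -0.00, 0.75, -0.03 and 0.03, and the cord read 0.36, 0.00, 0.01 and -0.35 at day 1, 1.12, 1.36, 1.56 and 2.08 at day 3, followed by 2.16, 2.16, 2.18 and 1.45 at day 7. Only cord day 1 overlapped with its controls. The change was 0.85 ± 0.21, 1.37 ± 0.21 and 1.17 ± 0.21 in the cerebrum (adjusted p = 0.00468, 0.0011 and 0.109) and -0.18 ± 0.21, 1.35 ± 0.21 and 1.80 ± 0.21 in the cord (0.539, 0.000409 and 1.37e-05). The tissues differed at day 1 by -1.03 ± 0.29 (adjusted p = 0.021), a call that was lost without cord control replicate 2 or cerebral day 1 replicate 1. Slfn8 rose at all cord times (0.57 ± 0.20, 0.83 ± 0.20 and 1.08 ± 0.20) and at cerebral day 7 (1.01 ± 0.20), and the cord day 3 change was 0.67 ± 0.21 (adjusted p = 0.0819) without replicate 1.

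Of the 6 other induced genes, Rtp4, a chaperone of receptor traffic that interferon induces in many cells, rose in 5 comparisons. It read -1.11, -0.89, -1.08 and -1.13 on cerebral controls, 0.78, -0.08, 0.08 and 0.36 at day 1, -0.48, 0.01, 0.82 and 0.68 at day 3, followed by 1.06, 0.75, 0.44 and 1.03 at day 7. In the cord it read -0.46, 0.28, -0.31 and -0.35 on controls, 0.83, 1.01, 1.08 and 0.08 at day 1, 2.70, 0.69, 0.74 and 0.85 at day 3, followed by 0.52, 0.50, 0.57 and -0.06 at day 7. Injured cerebral arrays stood clear of their controls, whereas cord days 1 and 7 each had replicate 4 below control replicate 2. The change was 1.34 ± 0.32, 1.31 ± 0.32 and 1.87 ± 0.32 in the cerebrum and 0.96 ± 0.32, 1.45 ± 0.32 and 0.59 ± 0.32 in the cord, where day 7 did not pass (adjusted p = 0.411). The cord day 3 value was 0.97 ± 0.25 (adjusted p = 0.019) without replicate 1. At cerebral day 3 the call was lost without cerebral control replicate 4 or cerebral day 3 replicate 4. The tissues differed at day 7 by -1.28 ± 0.45 (adjusted p = 0.0308), a call lost in 5 of the 32 fits without 1 array.

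Ifi35, a protein of stressed and dying cells that acts on inflammatory signalling, rose at all cord times (0.86 ± 0.17, 1.23 ± 0.17 and 1.47 ± 0.17) and at cerebral day 1 (0.50 ± 0.17). Its response was larger in the cord at day 3 by 0.73 ± 0.23 (adjusted p = 0.0459, and 0.58 ± 0.23, 0.113, without cord day 3 replicate 1) and at day 7 by 0.88 ± 0.23 (0.0049). The day 3 call was lost in 20 of the 32 fits without 1 array, and that of day 7 with quantile normalisation on top. Ifi27l2a, a small mitochondrial protein, rose in the cerebrum at day 1 (0.41 ± 0.15) and day 7 (1.25 ± 0.15), while the cord changes were 0.03, 0.16 and 0.20. The day 7 difference was -1.04 ± 0.21 (adjusted p = 0.000257). Without cerebral day 1 replicate 1 the day 1 rise of Ifi27l2a did not pass. Phf11d, a nuclear protein with a zinc finger domain, rose at all cerebral times and at cord days 3 and 7, by 0.75 to 1.38. Its cord day 3 change of 0.75 ± 0.22 (adjusted p = 0.0488) was 0.67 ± 0.23 (0.13) without replicate 1, and 21 of the 32 fits without 1 array lost that call. The cerebral day 1 call was lost without replicate 1 of that group, and the day 3 call in 5 of the 32 fits. Xaf1, which promotes apoptosis, and Parp14, an ADP-ribosyltransferase, passed nowhere, at -0.07 to 0.46.

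The tests of the difference between tissues ask whether the 2 injuries drew unlike responses from the same gene. At day 1, 1 member was higher in the cord response (4.7% of all genes) and 3 were lower (6.58%). Those were Irf9, and Ifnar1, Ifnar2 and Slfn5. Without cord day 3 replicate 1, 8 members passed at day 1, with Stat2, Ifit2, Gbp2 and Gbp7 gained. The share of all genes in that fit is not reported here. At day 3, 3 were higher, Herc6, Ifi35 and Ifnar1 (4.08% of all genes), and 0 lower (5.19%), with unadjusted p below 0.05 for 7 members in limma. At day 7, 4 were higher (13% of all genes) and 7 lower (14.6%). The 11 of day 7 are 24.4% of the members, beside 27.6% of all genes, so the share of members that differed was close to the background. At days 1 and 3 the members that differed in either direction were 8.9% and 6.7%, which did not exceed the shares of all genes either.

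Both directions were present at day 7. Higher in the cord were both receptor chains, Ifi204 and Ifi35, and lower were Ifit1, Ifit2, Ifit3, Isg15, Cmpk2, Rtp4 and Ifi27l2a. Ifnar1, Ifit2, Ifit3, Cmpk2 and Ifi27l2a kept their calls under every alternative run. In the same comparison monocyte and macrophage markers were higher for 7 of 11, with a median difference of 2.22. Neutrophil markers were higher for 10 of 11, with 2.51, fibroblast markers for 5 of 7, and neuronal markers were lower for 8 of 10. Of the oligodendrocyte markers, Opalin (-2.29), Ermn (-2.18), Mog, Mag, Mobp and Cldn11 (-0.76) were lower, and Cnp (-0.12) did not pass. Among astrocyte markers S100b (-1.89) and Gfap (-1.35) were lower, and the others did not pass. The part of these cells in the differences was not tested.

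**Figure D4:**
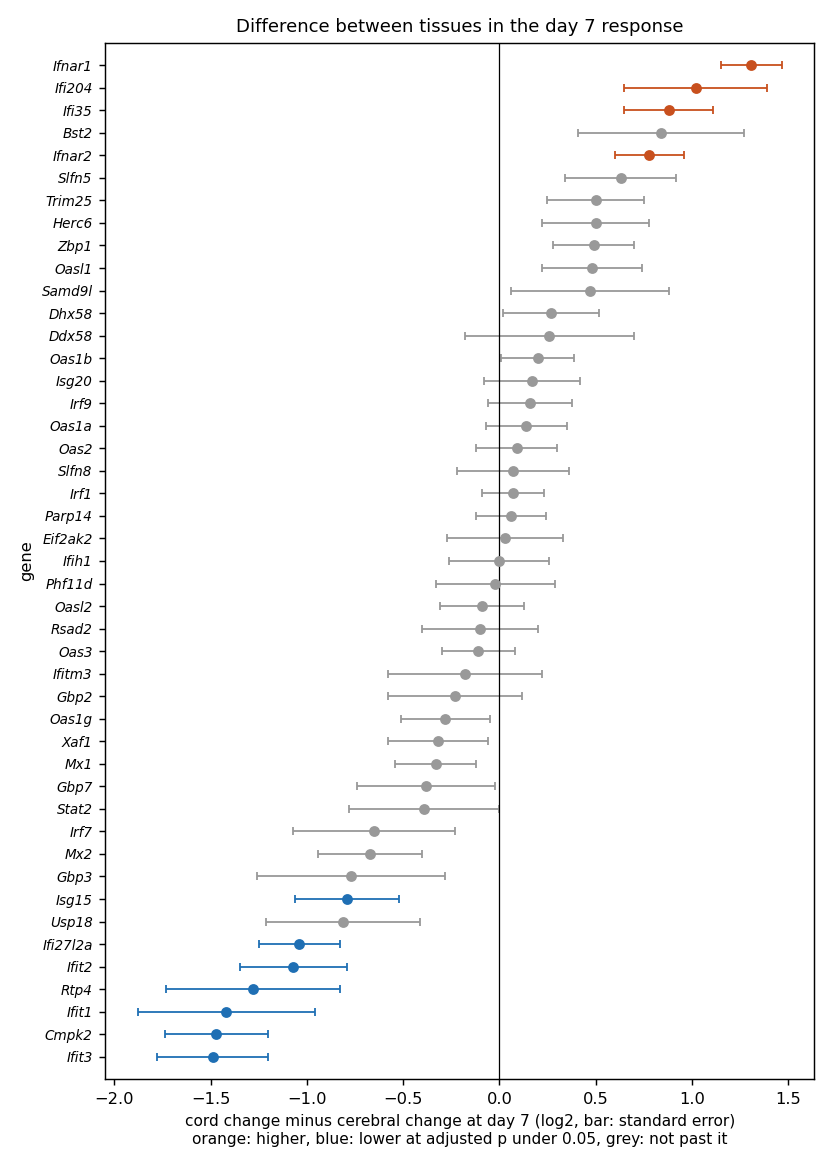
Cord change minus cerebral change at day 7 for the 45 members, in log2 units with standard errors; orange and blue mark genes higher and lower in the cord at adjusted p under 0.05, grey those not past it. The called differences run from -1.49 for Ifit3 to 1.31 for Ifnar1, with 4 genes on the high side and 7 on the low side.

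Within the cord, days 1 and 7 were compared to follow the early and the late phase. From day 1 to day 7, 7 members rose (11.2% of all genes) and 4 fell (8.78%). The share of members that fell was close to the background, and the share that rose was not far above it. Bst2 rose by 3.32 ± 0.31, Slfn5 by 1.98 ± 0.21, Ifnar2 by 1.69 ± 0.13, Ifi204 by 1.36 ± 0.26, Ifnar1 by 1.31 ± 0.11, Phf11d by 1.08 ± 0.22 and Trim25 by 0.76 ± 0.18. Stat2 fell by 1.12, Cmpk2 by 1.11, and Gbp2 and Gbp7 by 1.01 each, with adjusted p from 0.000551 to 0.0408. Over the same interval the mean level of macrophage markers went from 0.23 to 0.95 at day 1 to 3.71 to 4.18 at day 7, and its part was not tested. In the cerebrum, Bst2 was the 1 member that rose from day 1 to day 7 (1.46 ± 0.31, adjusted p = 0.0306), and 0 fell, beside 0.677% and 0.441% of all genes. This call was lost with quantile normalisation on top and without any 1 of cerebral day 1 replicates 2 and 3 or day 7 replicates 1, 2 and 4. From cerebral day 3 to day 7, 0 members rose and 0 fell in limma, beside 0.118% and 0.0103% of all genes, and unadjusted p was below 0.05 for 1.

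Between control tissues, 8 of the 45 members were higher in cord than in cerebrum (17.2% of all genes) and 1 was lower (17.6%). The 9 are 20.0% of the members, beside 34.8% of all genes in either direction. With all arrays the share that differed was thus below the background and that of higher genes close to it. The 8 were Ifitm3 (1.32 ± 0.29), Slfn5 (0.87 ± 0.21), Cmpk2 (0.86 ± 0.19), Rtp4 (0.84 ± 0.32), Mx2 (0.80 ± 0.19), Ifit2 (0.71 ± 0.20), Ifnar2 (0.68 ± 0.13) and Ifi27l2a (0.42 ± 0.15), and Herc6 was lower by 0.84 on the log2 scale (-0.84 ± 0.20). Without cord day 3 replicate 1, which enters only through the shared estimate of the spread, 14 members differed between controls. Gained were Stat2, Ifit1, Oas1b, Eif2ak2 and Gbp3. The share of all genes in that fit is not reported here, so the reading against the background holds for the full set of arrays only. Cord control replicate 2 was the highest of its group in 24 of 45 members, 53.3% against 24.3% of all genes, and also had the highest fibroblast markers, at 1.49 beside -0.72 to 0.53. The 10 skeletal muscle markers were all higher in cord controls, and their part was not tested.

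Single arrays carried much of 3 counts. Cord day 3 replicate 1 was the highest of its 4 arrays in 33 of 45 members, 73.3% against 31.1% of all genes, with a median excess of 0.60 over the mean of the others. Without it 17 of the 23 calls at cord day 3 remained and 0 were gained, and Stat2, Usp18, Ifih1, Dhx58, Slfn8 and Phf11d were lost. Its microglia markers averaged -0.75, while the other 3 arrays read 0.92 to 1.10 and the cord arrays of day 1 read -0.75 to -0.37. Its neutrophil markers, at 1.46, were the highest of the group, whose other arrays read 0.52 to 1.34. Cerebral day 1 replicate 1 was highest in 27 members (60% against 25.7% of all genes), and 11 of the 20 calls of that day remained without it. Lost were Irf7, Isg15, Dhx58, Zbp1, Ifit3, Mx2, Gbp7, Ifi27l2a and Phf11d. Cerebral day 3 replicate 4 was highest in 31 (68.9% against 22%), and 5 of 10 calls remained without it, namely Ifi204, Ifit3, Bst2, Ifitm3 and Slfn5. Leaving out cerebral control replicate 4 left 6 of those 10, with Ifnar2, Gbp3, Rtp4 and Phf11d lost.

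**Figure D5:**
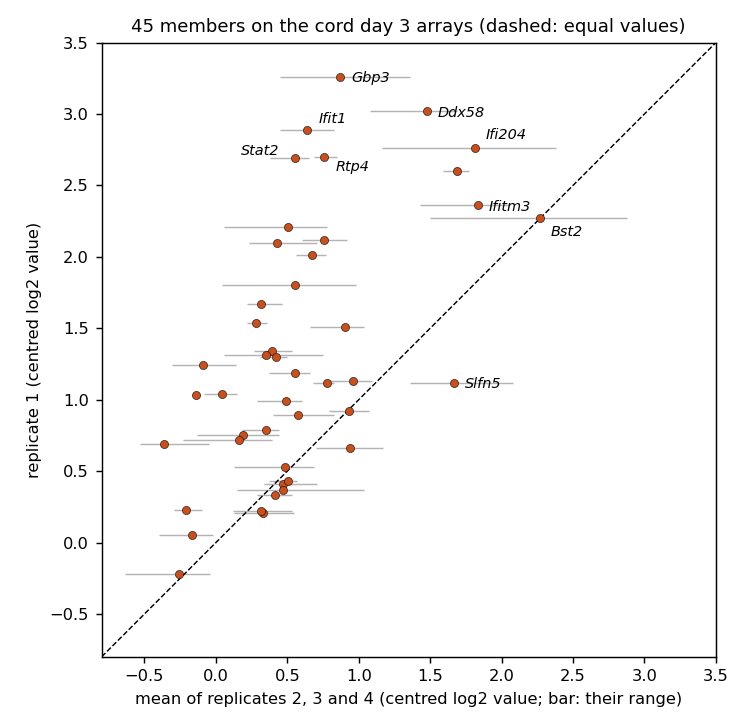
Centred log2 value of each of the 45 members on cord day 3 replicate 1 against the mean of replicates 2, 3 and 4, with bars for their range and a dashed line of equal values. Gbp3 at 3.26, Ifit1 at 2.89 and Stat2 at 2.69 lie far above the line, Bst2 at 2.27 lies on it, and Slfn5 at 1.12 lies below it.

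Few transcripts of the interferons themselves changed. Of 19 ligand genes, 0 rose in the cerebrum at any time or in the cord at days 3 and 7 in limma. Interferon beta, Ifnb1, stood at -0.01, -0.01 and -0.29 in the cerebrum and 0.14, -0.25 and -0.34 in the cord (standard error 0.13, adjusted p from 0.435 to 1.0). Interferon gamma, Ifng, stood at -0.27, -0.11 and 0.18 and at 0.07, -0.17 and 0.16 (standard error 0.14, adjusted p from 0.184 to 1.0). At cord day 1, Ifne (0.74 ± 0.12), Ifnl2 (0.39 ± 0.12), Ifnl3 and Ifna13 rose, and Ifnk fell by 0.41. Over all genes 15.8% rose and 16.1% fell there. The deposited values carry no detection flag, so whether a ligand probe was above background is unknown.

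Upstream of the ligands are the sensors and adaptors that start interferon production. Of 16 measured, 5, 2 and 5 rose in the cerebrum at days 1, 3 and 7 and 4, 7 and 14 in the cord, and the rest did not pass. Their median change was 0.30, 0.22 and 0.42 in the cerebrum and 0.25, 0.51 and 1.32 in the cord, against the medians and shares of all genes given above. Tlr7, an endosomal RNA sensor, rose by 1.54 ± 0.22, 1.67 ± 0.22 and 2.43 ± 0.22 in the cerebrum and 0.63 ± 0.22, 3.04 ± 0.22 and 4.41 ± 0.22 in the cord. Sting1, the adaptor of cytosolic DNA sensing, rose by 0.83 to 1.24 in the cerebrum and 2.22 to 2.91 in the cord. The cord response exceeded the cerebral response for 2, 4 and 11 of the 16 at days 1, 3 and 7. Tlr7 and Unc93b1, its transport chaperone, differed by 1.98 ± 0.31 and 1.94 ± 0.23 at day 7. The part of the cell type markers given above in these changes was not tested.

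Among 14 receptor signalling genes and regulators, 3, 2 and 2 rose in the cerebrum and 5, 5 and 6 in the cord. Ptpn6, the phosphatase SHP-1 of blood cells, rose by 1.64 ± 0.30, 1.46 ± 0.30 and 2.08 ± 0.30 in the cerebrum and stood at 3.78 ± 0.30 at cord day 7. Stat3, the factor of interleukin-6 family signals, rose at all cord times (1.76 ± 0.20, 1.47 ± 0.20 and 0.96 ± 0.20) and at cerebral days 1 and 3. Of 15 genes listed as responsive to interferon gamma, 1, 0 and 2 rose in the cerebrum and 7, 3 and 1 in the cord. Over all genes 8.91%, 2.86% and 3.06% rose in the cerebrum and 15.8%, 9.28% and 13.1% in the cord. Which interferon acted on these genes was not tested. Igtp rose by 2.11 ± 0.31 and 1.82 ± 0.31 at cord days 1 and 3, Irgm1 by 1.35 ± 0.25 and 1.22 ± 0.25, and Iigp1 by 1.21 ± 0.26 at day 1. All 3 are GTPases of the immunity-related family, and none passed at cord day 7.

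Of 53 other interferon-stimulated genes, 11, 8 and 10 rose in the cerebrum and 25, 22 and 26 in the cord, beside the shares of all genes given above. In the 6 comparisons 0 fell. Ifi207, a relative of Ifi204, rose most in the cerebrum at day 1 (1.64 ± 0.34) and in the cord at day 7 (4.70 ± 0.34). Trim30a, which restrains inflammatory signalling, rose by 1.45 ± 0.26, 1.96 ± 0.26 and 2.72 ± 0.26 in the cerebrum. Ifi30, a lysosomal reductase of antigen-presenting cells, rose by 1.05 to 3.78 in the cord, and its response there exceeded the cerebral one at day 7 by 1.45 ± 0.39. Ifit3b, a close copy of Ifit3 whose probe may share its target, followed the same course, with 1.39 at cerebral day 7, 0.18 at cord day 7 and a difference of -1.20 between them.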

How the data were processed

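RNA of 32 tissue samples was hybridised to microarrays, 1 array a sample, from 10 ng of total RNA per the labels' protocols. The deposited values are on a log2 scale, centred for each probe, by software not given in the sources used here. Over controls and day 1 together (16 arrays), the median was 0 in all probes, while day 3 and day 7 were taken to have each been centred with the 8 controls. That is inferred: of the 5621 and 5126 probes where it could be tested, among 22206, 86.8% and 86.4% matched it, against 68.6% to 70.1% for other partners, and the rest fell short by at most the allowance below. The offset of each day was therefore solved for each probe as the shift that gives a joint median of 0, and the largest distance from its midpoint to the ends of its possible range, plus an allowance (0.196 for day 3 and 0.262 for day 7) served as a bound. Of the probes, 19572 had 1 symbol and gave 19505 genes (probes of a gene were averaged), and 2634 had none. One limma 3.58.1 fit (R 4.3.3) of 8 group means had 24 residual degrees of freedom and gave 14 comparisons. Those of day 3 or day 7 with control or another day were tested against the bound, and the others against 0, with Benjamini-Hochberg adjustment over all genes. The script was tested on simulated data. Alternatives covered scaling, the offset, array weights, a filter on genes of low SD, the probe rule, subsets of controls and leaving out each array. Described array by array are the 6 members with the largest mean of the 6 changes against control, both receptor chains and the 3 with the largest difference between tissues at each day; Stat2 and Isg15 were added after their values were seen. Of each other list, up to 3 genes with the largest change past the test, or the largest difference between tissues, were named, with Ifnb1 and Ifng. The members, gene lists and control subsets were chosen with earlier results of these data known. The number of arrays limits the precision, and no detection flag or batch came with the values. Sample titles run in a separate range for each group, so a batch that follows them and the group cannot be told apart. Promoters came from RefSeq, build GRCm38.p6. Figures were drawn with Python 3.11.15 and matplotlib 3.10.9.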

Additional observations from a re-analysis of the deposited data

Results flagged for a closer look

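In 31 of 360 combinations of a member and a group, 1 of the 4 arrays lay apart from the others by Dixon's criterion, where chance gives about 1 in 20. Cord day 3 replicate 1 accounts for 7 of them, each time as the highest array, with Ifit1 at 2.89, Rtp4 at 2.70, Stat2 at 2.69, Gbp7 at 2.01, Ifit2 at 1.67, Mx2 at 1.54 and Oasl1 at 1.03. The other arrays of that group read -0.16 to 0.85 for these 7 genes.

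Among cord controls, replicate 2 was high for Slfn5 (0.75) and Oasl2 (0.39). At cord day 1, replicate 4 was low for Samd9l (-0.09), replicate 1 low for Oas3 (-0.19) and replicate 3 high for Mx2 (0.82). At cord day 7, replicate 4 was low for Slfn5 (1.45), Rtp4 (-0.06) and Usp18 (-0.06), while replicate 1 was high for Rsad2 (0.40), replicate 2 for Oasl2 (0.58) and replicate 3 for Oas3 (0.23).

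Among cerebral controls, replicate 2 was low for Isg15 (-0.63) and Oas2 (-0.49), replicate 1 was high for Herc6 (0.26) and Cmpk2 (-0.45), and replicate 3 was high for Phf11d (-0.12). At cerebral day 1, replicate 1 was high for Phf11d (1.34), replicate 4 high for Parp14 (0.29), replicate 3 low for Irf1 (-0.22) and replicate 2 low for Mx2 (-0.22). Oas1b was low on cerebral day 3 replicate 1 (-0.10). At cerebral day 7, Ifnar2 was low on replicate 1 (0.36), Stat2 on replicate 2 (-0.43) and Phf11d on replicate 3 (0.72).

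The injury response differed between tissues for 18 combinations of a member and a day by the limma test of the difference, cord minus cerebrum. At day 1 these were Ifnar1 and Ifnar2 (-0.58 each), Slfn5 (-1.03) and Irf9 (0.70). At day 3 they were Herc6 (1.29), Ifi35 (0.73) and Ifnar1 (0.55). At day 7 the cord response was higher for Ifnar1 (1.31), Ifi204 (1.02), Ifi35 (0.88) and Ifnar2 (0.78). It was lower for Ifit3 (-1.49), Cmpk2 (-1.47), Ifit1 (-1.42), Rtp4 (-1.28), Ifit2 (-1.07), Ifi27l2a (-1.04) and Isg15 (-0.79). The causes were not tested.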

How the results depend on the processing

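Counts are members past adjusted p below 0.05 in limma; where they moved, the cause was not tested unless the setting tests fewer arrays. With quantile normalisation on top, cerebral day 3 went from 10 to 17, cord day 3 from 23 to 14, cord day 7 from 19 to 7, the differences between tissues at days 1 and 3 from 4 to 7 and from 3 to 1, and day 7 against day 1 in the cerebrum and against day 3 in the cord from 1 to 4 and from 1 to 0. The day 7 differences of Ifnar2 and Ifi204 turned to -0.22 (adjusted p = 0.488) and -0.41 (0.554). With the values as deposited, cerebral days 3 and 7 gave 18 and 25, cerebral day 7 against days 1 and 3 gave 3 and 1, and cord day 7 against days 1 and 3 gave 17 and 8. With the offset taken as exact and no bound, those 6 counts were 22, 30, 6, 6, 22 and 10. Array weights gave 8 for the day 1 difference and 5 for cerebral day 7 against day 1, and leaving out genes of low SD gave 2 for the latter. With cerebral controls 3 and 4 only, cerebral days 1 and 3 gave 10 and 4 and the day 1 difference 2. With cerebral controls 1 and 2 only, cerebral days 1 and 3 gave 10 and 6, and the differences at days 1 and 3 gave 0 and 1. Cord controls 3 and 4 only gave 5 for the day 3 difference.

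Leaving out 1 array at a time gave 11 to 25, 5 to 13 and 12 to 19 at cerebral days 1, 3 and 7, and 16 to 24, 17 to 27 and 17 to 22 in the cord. It gave 2 to 8, 1 to 5 and 8 to 14 for the differences at days 1, 3 and 7, and 7 to 14 between controls. For cerebral day 7 against days 1 and 3 it gave 0 to 3 and 0 to 0, and for cord day 7 8 to 14 and 1 to 2. No paired analysis was possible because the labels carry no replicate numbers that groups share.

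Called under all of these settings were 8 members at cerebral day 1, 4 at day 3 and 9 at day 7, 14, 14 and 7 in the cord, and 0, 1 and 5 for the differences at days 1, 3 and 7. Centred values without a detection flag set no lower limit of signal.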
